A study of Mus musculus with 4 samples.

Results

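The collagen genes were followed across the cell types of mouse liver, as the gene rows whose symbol consists of Col, a number, the letter a and a number. This choice took 44 genes out of the 54464 gene rows of the UMI matrix, a UMI being a unique molecular identifier that marks a single captured transcript. UMI counts are estimates that can be fractions, and 43 of the genes had an estimate above 0 (Col2a1, the cartilage collagen, had 0). The nuclei came from livers of female mice in which both alleles of Nampt were floxed. Mice labelled C57BL6/BomTac Alb-Cre Nampt cKO (knockout) also carried Cre recombinase driven from the promoter of the albumin gene, a hepatocyte gene, and are called HNKO, the hepatocyte-specific Nampt knockout. Their floxed littermates without Cre, labelled C57BL6/BomTac Nampt cKO (wildtype), are called WT. There were 3 WT and 3 HNKO mice, which had started a purified control diet at 8 to 12 weeks of age and received it for 6 weeks. Whether the drinking water of these 6 mice held nicotinamide riboside was not given in the sources used here. Frozen liver was crushed, the nuclei of each mouse were tagged with an antibody hashtag, 4250 nuclei per mouse were sorted, and all mice were pooled for droplet single-nucleus RNA-Seq. Mice are numbered in the order of their hashtag names, so the numbers pair no WT mouse with an HNKO mouse. The question was which liver cells carried collagen transcripts and whether their levels differed between genotypes.

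Collagens are proteins of the extracellular matrix built from 3 alpha chains wound into a triple helix. Fibrillar collagens such as types I, III and V assemble into the banded fibers of scar and stroma, and type IV forms the sheet-like network of basement membranes. Beaded filament, fibril-associated and multiplexin collagens link these networks to each other, and transmembrane collagens remain at the cell surface. In liver the hepatic stellate cell, a vitamin A-storing pericyte of the sinusoid, is known as a main producer of fibrillar collagen in fibrosis, together with portal fibroblasts.

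The study's cluster names were used to place 5193 nuclei in 6 cell types, with 16 to 43 stellate, 26 to 71 endothelial and 562 to 847 hepatocyte nuclei per mouse. No barcode occurred more than once. Stellate nuclei totalled 171 and their summed UMIs ranged from 56672 in WT 2 to 172994 in HNKO 1. The summed level of 12 stellate markers lay between 6461 and 14251 counts per 1e6 UMIs of the sum (CPM) in stellate nuclei. It was 266 to 606 CPM in endothelial nuclei and 36.8 to 202 CPM in hepatocytes. The clusters were made from the same counts, so these sums are not an independent check of the stellate label. RNA of hepatocytes was also present in stellate nuclei, where 6 hepatocyte markers summed to 1428 to 4416 CPM. HNKO 3 stood apart in having hepatocyte markers at 9917 CPM in hepatocytes against 24309 to 30735 CPM in the other 5 mice. The hashtag of the assigned mouse held on average 34.6% (HNKO 3) to 62.6% (HNKO 1) of the hashtag counts of a stellate nucleus, and 48.4% (HNKO 3) to 79.6% (HNKO 1) in hepatocytes, so stellate nuclei were assigned to mice with less margin than hepatocytes. Nampt itself was at 84.8, 105 and 96.9 CPM in WT hepatocytes and at 84.1, 148 and 90.8 CPM in HNKO hepatocytes. The gene sums do not show which exons a transcript held, so they do not check the labels, and WT and HNKO mean the mice labelled so. In these pooled tissue samples nuclei of 1 mouse are not replicates, and all comparisons of genotype were made on sums per mouse.

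Promoter windows were examined for members that marked different cell types in the values given below. RefSeq start sites on GRCm38.p6 gave 38 windows for 35 of the 44 genes, and exonic bases were left out of the windows shown. The sequences below run 5′ to 3′ along the strand of the gene and end at its start or at the nearest exon, and capitals mark motifs on either strand. The first motif searched was TATAAA, the letters of a TATA box. The second motif searched was CCAAT. The GC box was searched as GGGCGG, the letters bound by Sp1. Col3a1 at chr1:45311288-45311537 on the plus strand is the stellate fibrillar gene discussed most, and Col1a2 at chr6:4505370-4505492 on the plus strand is its type I companion. Col13a1 at chr10:61979109-61979358 on the minus strand led in endothelial nuclei, and Col18a1 at chr10:77166549-77166780 on the minus strand led in hepatocytes (the first of 2 windows of this gene).
Col3a1: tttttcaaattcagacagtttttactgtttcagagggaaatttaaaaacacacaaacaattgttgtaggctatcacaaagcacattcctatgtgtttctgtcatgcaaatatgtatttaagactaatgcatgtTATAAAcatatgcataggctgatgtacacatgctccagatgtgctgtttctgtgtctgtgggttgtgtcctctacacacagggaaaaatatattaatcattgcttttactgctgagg
Col1a2: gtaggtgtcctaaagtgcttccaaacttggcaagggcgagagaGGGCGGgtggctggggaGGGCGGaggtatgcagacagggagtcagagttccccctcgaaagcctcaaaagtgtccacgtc
Col13a1: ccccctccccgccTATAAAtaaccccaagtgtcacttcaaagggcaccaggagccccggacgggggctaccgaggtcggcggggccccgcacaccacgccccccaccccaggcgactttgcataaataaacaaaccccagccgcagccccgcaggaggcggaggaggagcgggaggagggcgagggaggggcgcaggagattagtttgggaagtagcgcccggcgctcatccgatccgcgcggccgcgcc
Col18a1: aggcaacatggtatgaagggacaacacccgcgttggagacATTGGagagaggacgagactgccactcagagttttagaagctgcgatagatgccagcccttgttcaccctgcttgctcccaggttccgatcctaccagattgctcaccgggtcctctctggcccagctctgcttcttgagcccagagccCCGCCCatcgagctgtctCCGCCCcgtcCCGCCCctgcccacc
Col3a1 and Col13a1 held 1 TATAAA each, at positions -117 and -237 from the start. Col1a2 held 2 GC boxes in the 123 bases shown, and the 127 bases nearest its start were left out. Col18a1 held 3 GC boxes and 1 match to the second motif, all on the opposite strand. Over 32851 windows of the 250 bases before a start, 12.4% held the first motif, 33.8% the second and 32.7% the GC box. Among the 38 collagen windows the counts were 5, 13 and 22. Exonic bases were kept for the counts over windows. The matches describe letters only and do not mark factor binding.

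Stellate nuclei had the highest collagen level of the cell types. Over all members, collagen reached 6116, 3602 and 3505 CPM in stellate nuclei of WT mice and 6412, 4614 and 5645 CPM in those of HNKO mice. Endothelial nuclei of the 6 mice had 846 to 1376 CPM, and hepatocytes had 606 to 725 CPM. The ranges of the 3 cell types did not overlap. Of the 44 genes, 33 had a summed estimate above 0 in stellate nuclei and 14 had at least 50 UMIs over the 6 mice. The corresponding numbers were 32 and 6 in endothelial nuclei, 43 and 16 in hepatocytes, 22 and 1 in CD45+ nuclei, 21 and 0 in Kupffer nuclei, and 31 and 2 in cholangiocytes. In all, 23 genes reached 50 UMIs in at least 1 cell type. Those that did not included the beaded filament genes Col6a1, Col6a2, Col6a4, Col6a5 and Col6a6, the cartilage genes Col2a1, Col9a1, Col9a2, Col9a3, Col10a1, Col11a1 and Col11a2, the anchoring fibril gene Col7a1, and Col4a6, Col8a2, Col16a1, Col17a1, Col19a1, Col22a1, Col26a1 and Col28a1.

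**Figure D1:**
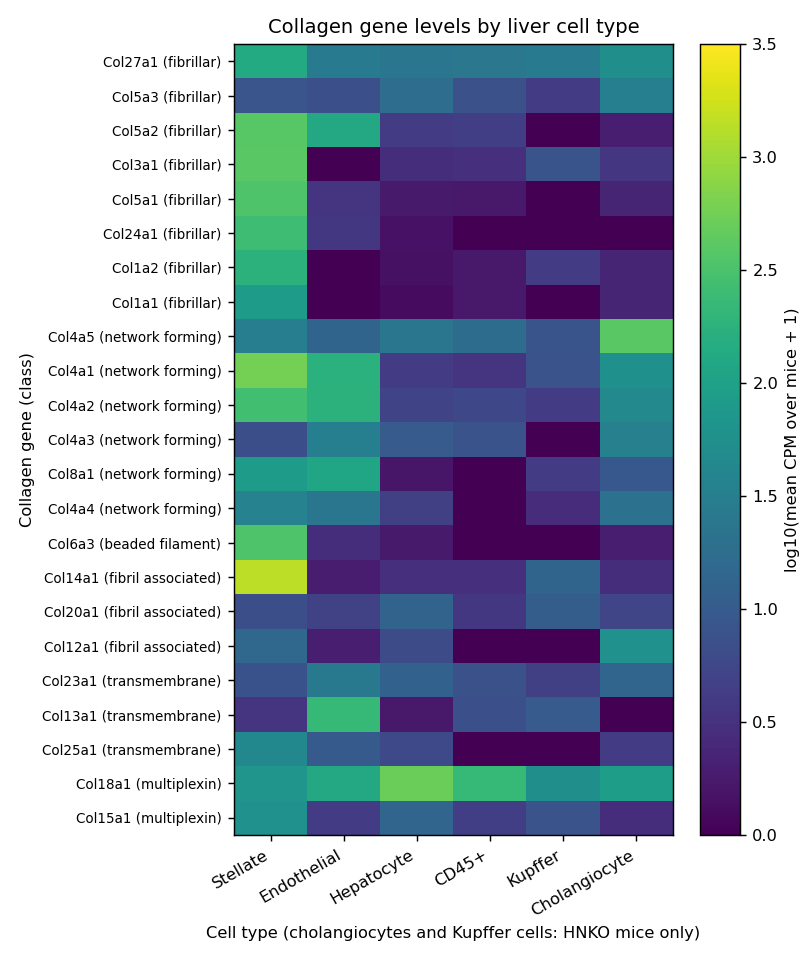
Mean level of the 23 collagen genes with at least 50 UMIs in a cell type (rows) in each of 6 cell types (columns), as log10 of the mean CPM over mice plus 1 on a color scale; only mice with at least 10 nuclei of a type enter. Col14a1, Col3a1, Col6a3, Col5a1 and Col24a1 are highest in the stellate column, Col13a1 in the endothelial column, and Col18a1 in the hepatocyte column.

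Since hepatocytes made up most nuclei, the share of a mouse's collagen UMIs in stellate nuclei was small. It was 16.1%, 7.47% and 9.41% in WT 1 to 3 and 18.3%, 13.4% and 15.6% in HNKO 1 to 3, or 13.4% ± 4.18 (SD, n = 6), while stellate nuclei were 2.06% to 4.05% of nuclei. Hepatocytes held 71.2% to 87.7%. Col18a1, which encodes the precursor of endostatin, made up 76.8% of the collagen UMIs of hepatocytes. Without Col18a1, the stellate share was 52.0%, 24.9% and 34.0% in WT and 38.4%, 39.5% and 31.6% in HNKO mice, with a mean of 36.7%, while hepatocytes held 40.4%, 61.4% and 53.6% in WT and 43.1%, 48.4% and 50.1% in HNKO mice. Hepatocytes therefore still held more of the remaining collagen UMIs than stellate nuclei in each mouse except WT 1. For Col1a1, Col1a2 and Col3a1, the genes of interstitial fibers, stellate nuclei held 81.1%, 54.2% and 81.9% of the UMIs in WT mice and 88.5%, 83.8% and 88.6% in HNKO mice. The lowest of these, in WT 2, rested on 29.5 UMIs in all cell types.

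**Figure D2:**
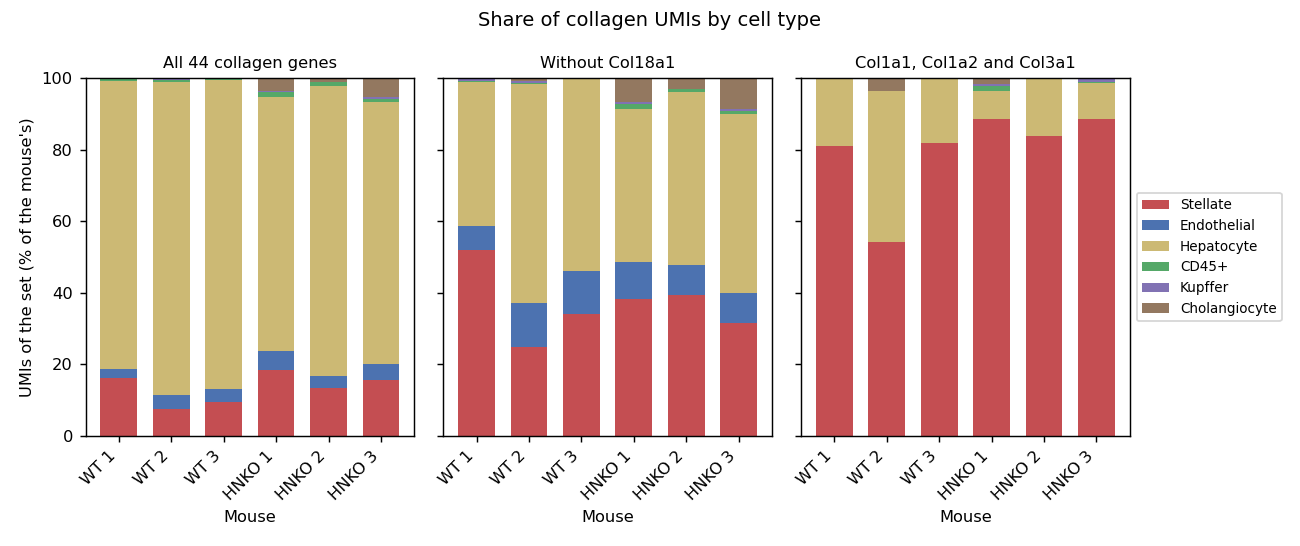
Share of each mouse's collagen UMIs (percent, vertical axis, from 0) that lay in each cell type, as stacked bars for the 3 WT and 3 HNKO mice, for all members, without Col18a1, and for Col1a1, Col1a2 and Col3a1 together. Hepatocytes hold 71.2% to 87.7% of the UMIs of all members and 40.4% to 61.4% without Col18a1, and stellate nuclei hold 54.2% to 88.6% of the 3 fibrillar genes.

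Within stellate nuclei Col14a1 was the most abundant collagen gene. It encodes a fibril-associated collagen that binds to the surface of fibrils. Col14a1 was at 2332, 847 and 1178 CPM in WT mice and at 873, 1996 and 1330 CPM in HNKO mice, so the groups overlapped and the highest mouse was 2.75 times the lowest. It accounted for 27.2% of stellate collagen UMIs and was found in 151 of 171 stellate nuclei. Per mouse 75.0% to 94.7% of stellate nuclei had a Col14a1 UMI, against at most 1.96% of endothelial nuclei and 1.60% of hepatocytes, at median depths of 2962 to 4011, 2444 to 3260 and 3572 to 5786 UMIs per nucleus. With every nucleus thinned to 1000 UMIs, the stellate share was still 48.5% to 83.8%.

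Levels of different genes were compared per kilobase of gene span, because counts included unspliced transcripts. On that scale Col3a1 led in stellate nuclei at 10.4 CPM per kb, followed by Col14a1 at 6.69, Col4a1 at 5.16, Col1a1 at 4.98, Col1a2 at 4.74 and Col6a3 at 4.43. Col5a2 followed at 2.99, Col5a1 at 2.24 and Col4a2 at 2.03. The first place of Col3a1 on this scale rests on its short span, since its CPM was below that of Col14a1 in each mouse. Neighbors in this order lie within the spread over mice, for Col3a1 had 395 CPM ± 294 (SD, n = 6), Col1a2 had 174 ± 115 and Col1a1 had 83.8 ± 98.5.

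Fibrillar genes formed the largest group of stellate collagens, with 7 of 11 members at 50 UMIs or more. Col3a1, the chain of type III collagen, was at 210.1, 194 and 139.8 CPM in WT mice and at 642, 315 and 871 CPM in HNKO mice. Every HNKO mouse was above every WT mouse. Col1a2, the second chain of type I collagen, was at 124, 70.6 and 105 CPM in WT and at 364, 116 and 266 CPM in HNKO mice. Here HNKO 2 lay below WT 1. Col1a1, the main chain of type I collagen, was at 37.1, 17.6 and 49.9 CPM in WT and at 266, 6.85 and 125 CPM in HNKO mice, with HNKO 2 the lowest of all 6. The 2 main chains of type V collagen, which starts fibrils, varied less between genotypes. Col5a1 was at 383, 441 and 229.7 CPM in WT and at 318, 397 and 288 CPM in HNKO mice, and Col5a2 was at 643, 335 and 229.7 CPM in WT and at 445, 233 and 428 CPM in HNKO mice. Col24a1 was at 297, 459 and 199.7 CPM in WT and at 150.3, 397 and 66.4 CPM in HNKO mice, and the groups overlapped. Col27a1 was at 37.1, 70.6 and 149.8 CPM in WT and at 295, 116 and 162 CPM in HNKO mice, again with overlap.

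The basement membrane pair was also carried by stellate nuclei. Col4a1 was at 1100.0, 494 and 279.6 CPM in WT and at 1012, 493 and 162 CPM in HNKO mice, and Col4a2 was at 371, 212 and 189.7 CPM in WT and at 514, 253 and 125 CPM in HNKO mice. In both genes and both genotypes the mice numbered 3 were the lowest, and the spread within a genotype was larger than the difference between them. Col6a3, the large chain of type VI beaded filaments, was at 124, 194 and 289.6 CPM in WT and at 723, 116 and 627 CPM in HNKO mice. HNKO 2 had the lowest level and the other HNKO mice the highest. Col8a1, a network collagen of vessel walls, was at 74.2, 35.3 and 129.8 CPM in WT and at 19.3, 6.85 and 229 CPM in HNKO mice, and 17 of its 56.3 UMIs lay in a single HNKO 3 nucleus. Col15a1, a multiplexin of basement membrane zones, was at 37.1, 0 and 9.99 CPM in WT and at 139, 0 and 162 CPM in HNKO mice. A count of 0 allows up to 3 UMIs, which corresponds to 52.9 CPM in WT 2 and 20.5 CPM in HNKO 2. Col18a1, another multiplexin, was at 24.7, 70.6 and 0 CPM in WT and at 116, 20.5 and 162 CPM in HNKO mice.

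**Figure D3:**
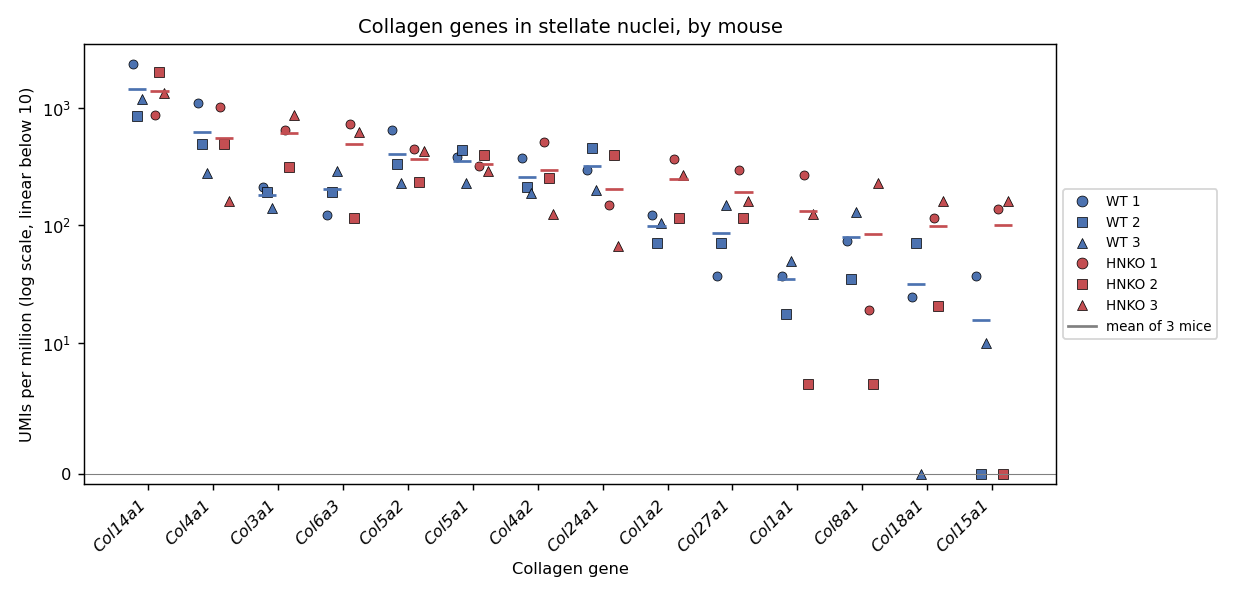
CPM in stellate nuclei (vertical axis, log scale, linear below 10) of the collagen genes with at least 50 UMIs, 1 point per mouse, WT and HNKO side by side with a bar at the mean of each genotype. Col3a1 is the gene in which the 3 HNKO mice, at 315 to 871 CPM, all lie above the 3 WT mice, at 139.8 to 210.1 CPM.

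The genotype difference in stellate nuclei was tested with edgeR's quasi-likelihood test on the sums of 3 WT and 3 HNKO mice. It covered 2266 genes, of which 10 were collagens, and no gene passed an adjusted p of 0.05 (0% called). Collagens that entered had to pass a filter on low counts. The rest, among them Col1a1, Col8a1, Col15a1 and Col18a1, were not tested in this fit. Without adjustment 160 genes had p under 0.05 with edgeR and 158 with DESeq2, which called 1 gene after adjustment and no collagen. At unadjusted p under 0.05, 2 of the 10 collagens were higher in HNKO, Col3a1 and Col1a2, beside 4.24% of all genes tested, and none was lower, beside 2.82%. Col3a1 had a log2 fold change of 1.73 ± 0.41 (SE; edgeR adjusted p = 0.539). Col1a2 had 1.29 ± 0.46 (edgeR adjusted p = 0.647), Col6a3 had 1.23 ± 0.58 (edgeR adjusted p = 0.709) and Col27a1 had 1.07 ± 0.52 (edgeR adjusted p = 0.726). The other 6 lay between -0.61 (Col24a1) and 0.20 (Col4a2), with edgeR adjusted p = 0.858 for the first and 0.963 for the second. The median of the 10 was 0.07, against 0.02 over all genes tested, and 5 folds were above 0 and 5 below. With no scaling factor the median over all genes was 0.12 and the split was 7 to 3, so the directions of the small folds rest on the scaling. Among the collagens, 1 of 10 had every HNKO mouse above every WT mouse, against 6.35% of all genes.

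The calls changed with the mice included and with the count filter. Without HNKO 2, edgeR called 47 of 2218 genes (2.12%), among them 2 of 14 collagens. These were Col3a1 at 2.02 ± 0.35 (edgeR adjusted p = 0.0263) and Col6a3 at 1.67 ± 0.37 (edgeR adjusted p = 0.04996). With DESeq2 and without HNKO 2, 69 of 14897 genes were called (0.463%) and 2 of 33 collagens, and edgeR with no count filter called 29 of 15571 genes (0.186%) and 1 of 33 collagens. Without HNKO 3, Col3a1 had a log2 fold change of 1.38 ± 0.42 (edgeR adjusted p = 0.998). With only nuclei whose own hashtag had at least 2 times the counts of the next, 11, 9 and 18 WT nuclei and 43, 17 and 10 HNKO nuclei remained, WT 2 dropped out with its 9 nuclei, and Col3a1 had 1.53 ± 0.68 (edgeR adjusted p = 0.818). There 0 of 9 collagens had p under 0.05 in the higher direction, against 4.34% of genes. Beside these values, the summed stellate markers were lowest in HNKO 3 and HNKO 1, at 6461 and 8142 CPM against 11552 to 14251 CPM in the other mice. Hepatocyte markers in stellate nuclei were highest in HNKO 1, at 4416 CPM, and were 1428 to 3278 CPM in the other mice. The part of these differences in the collagen values was not tested. Fewer expressing nuclei and less RNA per nucleus cannot be told apart in a sum.

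Single nuclei show where the fibrillar transcripts lay. Each of the 171 stellate nuclei had a collagen UMI, with a median of 6 collagen genes per nucleus and at most 18. Collagens took a median of 0.460% of a stellate nucleus's UMIs and at most 2.68%. Col3a1 was found in 91 nuclei, Col1a2 in 60 and Col1a1 in 30, and 25 of the 30 nuclei with Col1a1 also had Col3a1. By mouse, Col1a1 was found in 1, 1 and 3 nuclei of WT 1 to 3 and in 16, 1 and 8 nuclei of HNKO 1 to 3. Col3a1 was found in 33.3% to 52.6% of stellate nuclei in WT and in 52.9% to 69.8% in HNKO mice. After thinning to 1000 UMIs the ranges were 12.5% to 22.1% and 21.4% to 38.9% and overlapped. In hepatocytes at most 1.53% of nuclei had a Col3a1 UMI before thinning, and 0 of 245 endothelial nuclei had one. The part of free RNA in the stellate shares was not tested.

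The type I and III UMIs were concentrated in few nuclei. The 17 nuclei with the most Col1a1, Col1a2 and Col3a1 UMIs held 57.5% of the 530.5 UMIs of these genes. Of these nuclei 8 came from HNKO 3, 5 from HNKO 1, 2 from WT 1, and 1 each from HNKO 2 and WT 3. A single HNKO 1 nucleus of 4806 UMIs had 27 UMIs of Col3a1, 21 of Col1a1 and 15 of Col1a2, and held 28.8% of all stellate Col1a1 UMIs. Because the 17 nuclei were chosen by these genes, their other transcripts are described with no test. Col6a3 was at 1270 CPM in them against 283 CPM in the other 154 nuclei, and Col15a1 at 403 against 27.9 CPM. Col14a1, at 1481 against 1403 CPM, and Col5a1, at 293 against 339 CPM, were near equal. The 12 stellate markers summed to 5387 against 10986 CPM, with Reln, a stellate-enriched secreted protein, at 2756 against 6189 CPM and Hgf, hepatocyte growth factor, at 952 against 2710 CPM. Dcn, the proteoglycan decorin, was at 971 against 981 CPM.

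Markers of other mesenchymal cells in these 17 nuclei were sparse but present. The 10 markers of portal fibroblasts and mesothelium summed to 244 against 22.1 CPM, from 20 and 13.5 UMIs. Dpt, the matrix protein dermatopontin, gave 14 of the 20 UMIs in 7 nuclei, and Thy1, Gli1, Msln and Upk3b were at 0 in all stellate nuclei. The 5 myofibroblast and smooth muscle markers summed to 244 against 141 CPM, from 20 and 86 UMIs. Acta2, smooth muscle actin, had 6 UMIs in 2 of the 17 nuclei and 5 UMIs in 2 of the others. Tagln was at 110 against 54.1 CPM, Myh11 was lower at 61.0 against 78.6 CPM, and Cnn1 and Actg2 were at 0 in all stellate nuclei. Bicc1, an RNA-binding protein counted among the cholangiocyte markers, was at 1902 against 769 CPM. Of the same list, Pkhd1 was lower at 24.4 against 68.0 CPM and Spp1 was at 36.6 against 13.1 CPM. Krt19 and Cftr were at 0 in all stellate nuclei, and Krt7, Epcam and Sox9 were at 0 in the 17 nuclei. Over all stellate nuclei, portal fibroblast and mesothelium markers summed to 61.8, 0 and 20.0 CPM in WT and to 104, 17.1 and 44.3 CPM in HNKO mice. Their part in the level of Col3a1 was not tested.

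**Figure D4:**
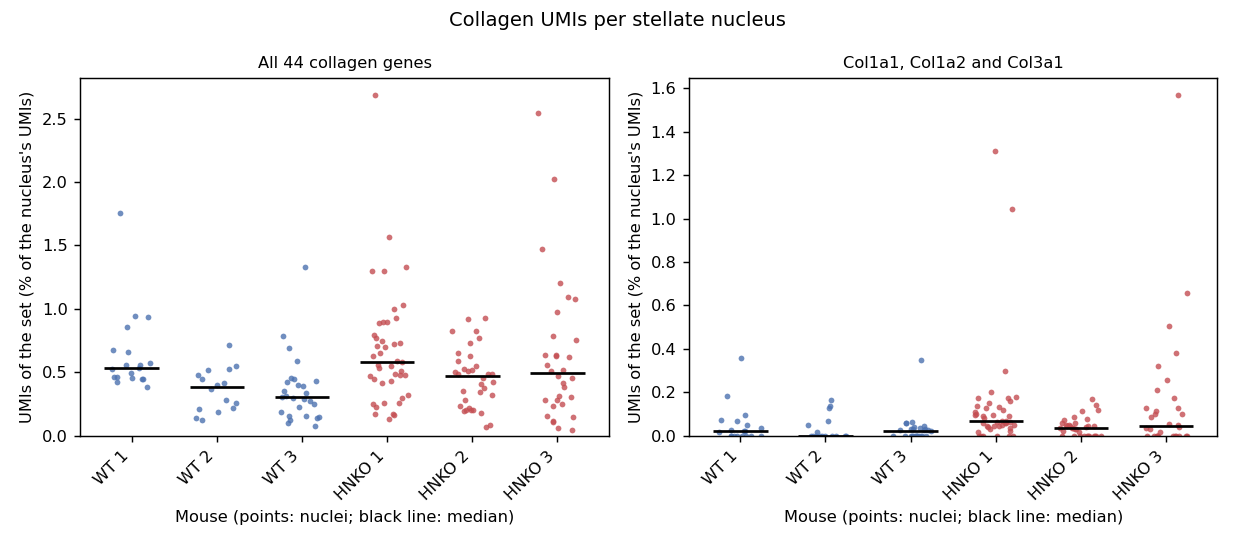
Single stellate nuclei by mouse (horizontal axis), with the percent of each nucleus's UMIs that came from all 44 collagen genes and from Col1a1, Col1a2 and Col3a1 together (vertical axes, 1 panel each); points are nuclei and black lines are medians per mouse. Every nucleus lies above 0 for all collagens, up to 2.68%, and the highest nuclei for the 3 fibrillar genes are from HNKO 1 and HNKO 3.

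Endothelial nuclei carried a different set of collagens. Col13a1, a transmembrane collagen, led at 258, 209 and 222 CPM in WT and at 249, 228 and 160.1 CPM in HNKO mice. It was found in 30.8% to 46.2% of endothelial nuclei per mouse, against at most 3.13% of stellate nuclei and 0.609% of hepatocytes. The highest mouse was 1.61 times the lowest, a smaller spread than for any stellate collagen above. Per kilobase of gene span, Col4a1 at 1.51 CPM per kb and Col4a2 at 1.30 came first. Col4a1 was at 112, 110.1 and 212 CPM in WT and at 272, 146 and 186 CPM in HNKO mice, and Col4a2 was at 101, 110.1 and 342 CPM in WT and at 183, 75.9 and 256 CPM in HNKO mice. Col5a2 was at 104, 187 and 92.3 CPM in WT and at 82.6, 141 and 171 CPM in HNKO mice. Col8a1 was uneven, at 0, 275 and 9.23 CPM in WT and at 0, 37.9 and 359 CPM in HNKO mice. The 56 UMIs of HNKO 3 lay in 1 nucleus and the 25 UMIs of WT 2 in 3 nuclei. Col18a1 was at 134, 110.1 and 138 CPM in WT and at 119.6, 157 and 102 CPM in HNKO mice. Col3a1, Col1a1 and Col1a2 had 0 UMIs in endothelial nuclei of all 6 mice, which allows 9.44 to 33.6 CPM per mouse.

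No genotype difference in endothelial collagens was detected at this depth. Of 2743 genes tested with edgeR none passed the threshold (0% called), and of the 5 collagens tested none had p under 0.05, beside 3.79% of all genes (104 genes with edgeR and 87 with DESeq2). Log2 fold changes ran from -0.16 ± 0.49 (SE) for Col4a2 to 0.46 ± 0.35 for Col4a1, with 2 above 0 and 3 below, or 3 and 2 with no scaling factor. A test of whether the genotype effect differed between stellate and endothelial nuclei covered 3235 genes and called none (0%), and 0 of 13 collagens had p under 0.05 against 5.41% of genes (175 genes). For Col3a1 and Col1a2 this difference could not be estimated because endothelial nuclei had no UMI of either.

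Hepatocytes carried mainly Col18a1. It was at 592, 481 and 601 CPM in WT and at 467, 548 and 439.6 CPM in HNKO mice, and 76.3% to 87.9% of hepatocyte nuclei per mouse had a UMI. The groups overlapped, with a log2 fold change of -0.35 ± 0.25 (SE; edgeR adjusted p = 0.83). Col18a1 was also found in the other cell types. Over all mice there were 21.7 Col18a1 UMIs per 1000 UMIs of the 6 hepatocyte markers in hepatocytes, 26.3 in stellate, 19.2 in endothelial, 23.2 in CD45+, 22.2 in Kupffer and 69.7 in cholangiocyte nuclei. By mouse this ratio was 24.3, 18.7 and 19.6 in WT hepatocytes and 17.7, 20.9 and 44.3 in HNKO hepatocytes, the highest being HNKO 3, which had the lowest hepatocyte markers. In endothelial nuclei it was 24.3, 14.9 and 28.7 in WT and 14.6, 21.0 and 27.0 in HNKO mice, and in stellate nuclei 16.3, 21.5 and 0 in WT and 26.2, 9.84 and 52.5 in HNKO mice, from 0 to 22 Col18a1 UMIs per mouse. In cholangiocytes it was 52.0, 0 and 95.8 in HNKO 1 to 3, from 28, 0 and 57 Col18a1 UMIs. Whether the Col18a1 UMIs outside hepatocytes came from hepatocyte RNA was not tested.

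Other collagens of hepatocytes were low. Col4a5, a basement membrane chain, was at 11.4, 13.0 and 20.3 CPM in WT and at 35.1, 22.5 and 35.0 CPM in HNKO mice. Col5a3, a type V chain, was at 8.80, 8.23 and 8.54 CPM in WT and at 25.8, 12.9 and 37.4 CPM in HNKO mice. Col15a1 was at 7.66, 10.9 and 6.07 CPM in WT and at 11.6, 17.5 and 23.7 CPM in HNKO mice. In each of these 3 genes every HNKO mouse was above every WT mouse. Col25a1, a transmembrane collagen known from neurons, went the other way, at 5.55, 4.94 and 6.86 CPM in WT and at 4.52, 4.07 and 3.65 CPM in HNKO mice. Col23a1, another transmembrane collagen, was at 8.21, 4.91 and 6.87 CPM in WT and at 26.4, 7.36 and 14.7 CPM in HNKO mice, and Col27a1 was at 12.5, 25.3 and 19.3 CPM in WT and at 21.6, 20.7 and 34.9 CPM in HNKO mice. Col20a1, a fibril-associated collagen, was at 14.0, 10.6 and 17.2 CPM in WT and at 10.8, 13.3 and 5.55 CPM in HNKO mice. The type IV chain Col4a3 was at 1.28, 9.78 and 14.2 CPM in WT and at 5.19, 6.83 and 18.2 CPM in HNKO mice, and its neighbor Col4a4 at 2.16, 3.38 and 5.16 CPM in WT and at 3.25, 2.92 and 5.04 CPM in HNKO mice. Col4a1 was at 1.99, 1.52 and 0.674 CPM in WT and at 7.99, 2.00 and 4.18 CPM in HNKO mice, with each HNKO mouse above the WT mice, but the gene did not pass the count filter and was not tested. Col4a2 was at 1.13, 7.59 and 1.42 CPM in WT and at 3.77, 2.67 and 8.55 CPM in HNKO mice, with overlap. The fibril-associated Col12a1 was at 5.94, 4.31 and 1.75 CPM in WT and at 10.7, 5.40 and 3.49 CPM in HNKO mice. The genes that led in stellate nuclei were low here, with Col14a1 at 2.86, 3.54 and 1.80 CPM in WT and at 1.81, 1.13 and 0.940 CPM in HNKO mice, and Col3a1 at 1.99, 2.15 and 1.46 CPM in WT and at 1.43, 1.48 and 2.46 CPM in HNKO mice. Col5a2 was at 10.5, 1.88 and 1.46 CPM in WT and at 0.490, 1.59 and 2.09 CPM in HNKO mice. Of the 75.2 Col5a2 UMIs in hepatocytes, 31 lay in 1 nucleus of WT 1.

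None of 11810 genes tested in hepatocytes passed an adjusted p of 0.05 with edgeR (0% called), while 698 had p under 0.05 without adjustment and DESeq2 called 24, with no collagen among them. Of 12 collagens tested, 3 had edgeR p under 0.05 in the higher direction, against 3.86% of genes, and 0 in the lower, against 2.05%. Every HNKO mouse was above every WT mouse in 3 of the 12, against 10.2% of genes, and below in 1, against 2.19%. Col5a3 had a log2 fold change of 1.38 ± 0.33 (SE), Col15a1 had 0.90 ± 0.27 and Col4a5 had 0.90 ± 0.29, each with edgeR adjusted p = 0.82. The median over the 12 was 0.30, against 0.02 over all genes tested, and 7 folds were above 0 and 5 below. With no scaling factor the split was 9 to 3 and the median over all genes 0.20. Without HNKO 2, edgeR called 32 of 12047 genes (0.266%) and 1 of 14 collagens, Col5a3, at 1.67 ± 0.21 (edgeR adjusted p = 0.0371). Without HNKO 3, Col5a3 was at 1.19 ± 0.34 (edgeR adjusted p = 0.975). Stellate markers in hepatocytes summed to 47.9, 58.3 and 97.1 CPM in WT and to 202, 36.8 and 136 CPM in HNKO mice, and the 8 cholangiocyte markers to 315, 346 and 305 CPM in WT and to 635, 300.4 and 517 CPM in HNKO mice. Both were highest in HNKO 1 and HNKO 3, and their part in the values of the 3 genes was not tested. In stellate nuclei Col5a3 had at most 13.7 CPM. In cholangiocyte nuclei, with CPM from HNKO mice only, the means were 31.0 CPM for Col5a3 (15 UMIs), 396 CPM for Col4a5 and 1.88 CPM for Col15a1. The means over 6 mice in hepatocytes were 16.9, 22.9 and 12.9 CPM.

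**Figure D5:**
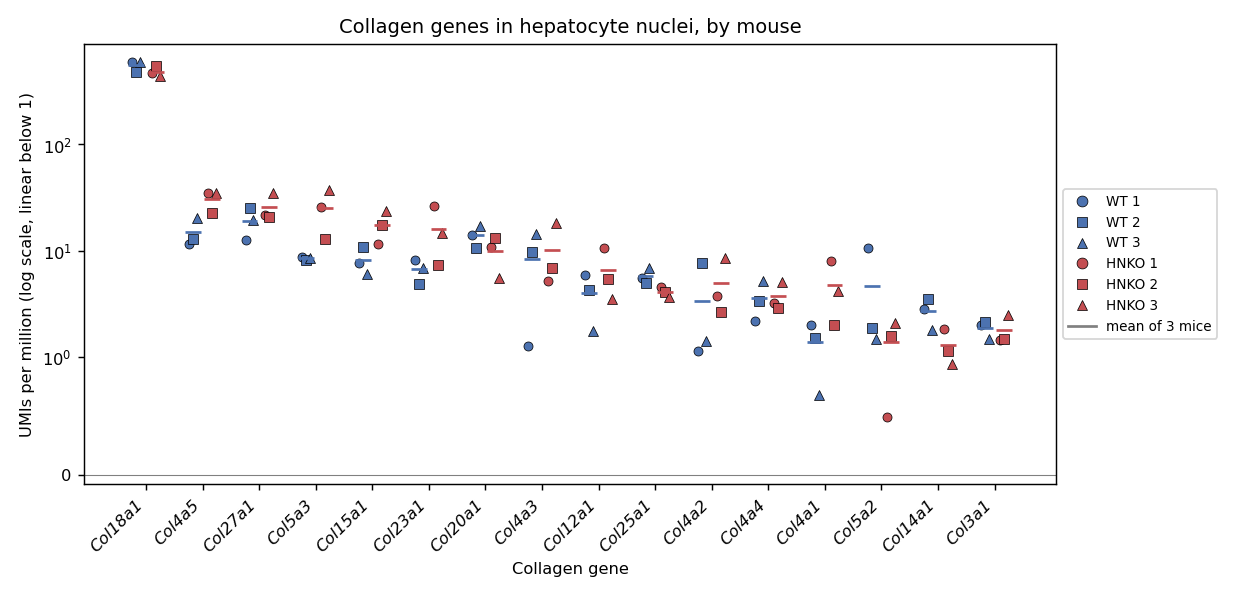
CPM in hepatocytes (vertical axis, log scale, linear below 1) of collagen genes with at least 50 UMIs, 1 point per mouse, WT and HNKO side by side with a bar at the mean of each genotype. Col18a1 lies at 439.6 to 601 CPM, and Col5a3, Col15a1 and Col4a5 have all 3 HNKO mice above the WT mice at levels below 40 CPM.

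Cholangiocyte nuclei were nearly confined to HNKO mice, with 1, 1 and 0 nuclei in WT and 40, 10 and 58 in HNKO mice, so no comparison of genotypes could be made. Col4a5 was their leading collagen, at 318, 642 and 228 CPM in HNKO 1 to 3, and 64 of 110 nuclei had a UMI. Col18a1 was at 107.5, 0 and 160.5 CPM in the same mice. Per kilobase of gene span Col4a5 reached 1.85 CPM per kb. Col4a6, its partner in basement membranes, was at 23.0, 172 and 56.3 CPM, from 33 UMIs over all mice. The value of HNKO 2 came from 2 of its 10 nuclei. In CD45+ nuclei, a mixture of leukocytes, Col18a1 was the sole collagen with 50 UMIs, at 285 and 164 CPM in WT 1 and 2 and at 142, 333 and 184 CPM in HNKO 1 to 3, while WT 3 had 7 nuclei and was left out. Its log2 fold change was -0.13 ± 0.50 (SE; edgeR adjusted p = 0.987), and none of 2703 genes was called (0%), although 222 had p under 0.05 with edgeR and 183 with DESeq2, which called 0. Kupffer nuclei, the resident macrophages, had no collagen with 50 UMIs, and with 6, 6 and 4 nuclei in WT mice they were not tested.

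The sums over all nuclei, as a bulk measurement would see them, mix levels with cell type numbers. Stellate nuclei made up 2.06% to 3.73% of nuclei in WT and 3.05% to 4.05% in HNKO mice, and cholangiocytes were nearly absent from WT. Of 13070 genes none was called with edgeR (0%), against 62 with DESeq2 and no collagen among them, and 1113 had an edgeR p under 0.05. Of 23 collagens, 6 had p under 0.05 in the higher direction, against 5.99% of genes, and 1 in the lower direction, against 2.52%. The 6 were Col5a3, Col3a1, Col4a5, Col15a1, Col1a2 and Col4a6, with log2 fold changes of 0.94 to 1.37 (edgeR adjusted p = 0.536 for the first and 0.567 for the last), and the lower gene was Col25a1 at -0.99 ± 0.33 (SE; edgeR adjusted p = 0.542). The folds of 15 collagens were above 0 and those of 8 below, or 17 and 6 with no scaling factor, where the median over all genes was 0.24 in place of 0.02. Col3a1 was at 6.37, 4.91 and 4.36 CPM in WT and at 16.0, 8.44 and 20.9 CPM in HNKO mice. Col4a6 was at 0.419 to 1.76 CPM in WT and at 1.82 to 4.98 CPM in HNKO mice. It was near the count filter and passed it through the HNKO mice. Its place among the 6 is therefore not independent of the filter. Without HNKO 2, 90 genes were called (0.688%), and Col5a3 was the sole collagen among them, at 1.49 ± 0.21 (SE; edgeR adjusted p = 0.0367).

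Several collagen genes are neighbors in the genome, and their pairs behaved differently across cell types. Col4a1 (chr8:11198423-11312826, minus strand) and Col4a2 (chr8:11312805-11449287, plus strand) lie head to head and overlap by 22 bases in the GRCm38 annotation. In stellate nuclei 106 had Col4a1, 86 had Col4a2 and 60 had both. Of the nuclei with Col4a1, 56.6% had Col4a2, against 50.3% of all stellate nuclei. Of those with Col4a2, 69.8% had Col4a1, against 62.0% of all stellate nuclei. In endothelial nuclei the numbers were 96, 86 and 46. There 47.9% of the nuclei with Col4a1 had Col4a2, against 35.1% of all endothelial nuclei. Col4a6 and Col4a5 on chromosome X are 1308 bases apart, also head to head. In cholangiocytes 12 of the 13 nuclei with Col4a6 also had Col4a5, which 58.2% of all cholangiocyte nuclei had. In hepatocytes 6 of the 19 nuclei with Col4a6 had Col4a5, against 10.5% of all hepatocyte nuclei. Col4a5 and Col4a6 had 192 and 33 UMIs in cholangiocytes and 743 and 26.5 UMIs in hepatocytes. Col3a1 (chr1:45311538-45349706, plus strand) and Col5a2 (chr1:45374321-45503282, minus strand) lie tail to tail 24614 bases apart. In stellate nuclei each was found in 91 nuclei and both in 55. Of the nuclei with one of these genes 60.4% had the other, against 53.2% of all stellate nuclei. Whether neighbors shared more nuclei than other genes do was not tested. In endothelial nuclei Col5a2 had 115 UMIs and Col3a1 had 0.

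Collagen chains need enzymes that hydroxylate, fold, trim and cross-link them, and a list of 77 such genes and of matrix partners, receptors and proteases was read beside the collagens. In stellate nuclei 22 were tested and none passed the adjusted threshold. At an unadjusted edgeR p under 0.05, 1 was higher, beside 4.24% of all genes, and 1 lower, beside 2.82%. Adamts3, a procollagen N-propeptidase, was at 173, 124 and 209.7 CPM in WT and at 52.0, 109.5 and 111 CPM in HNKO mice (log2 fold change -0.96 ± 0.42, SE; edgeR adjusted p = 0.696). Fn1, fibronectin, was at 247, 176 and 59.9 CPM in WT and at 231, 267 and 546 CPM in HNKO mice (1.11 ± 0.50, SE; edgeR adjusted p = 0.702), with overlap. In endothelial nuclei 11 were tested and 1 had p under 0.05, beside 3.79% of genes. This was Lama4, a laminin chain, at -0.54 ± 0.23 (SE; edgeR adjusted p = 0.996). In hepatocytes 29 were tested, with 1 higher at p under 0.05, beside 3.86% of genes, and 1 lower, beside 2.05%. Nid1, the basement membrane linker nidogen, had 3.00 ± 0.97 (SE; edgeR adjusted p = 0.82) and Dcn had -0.81 ± 0.35 (SE; edgeR adjusted p = 0.82). Without HNKO 2, Nid1 was called at 3.53 ± 0.40 (SE; edgeR adjusted p = 0.0371).

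In the sums over all nuclei 50 of the list were tested and edgeR called none. At an unadjusted edgeR p under 0.05, 8 were higher, beside 5.99% of genes, and 0 lower, beside 2.52%. The 8 were the cross-linking enzyme gene Loxl3, the collagen receptor genes Lair1, Itga2 and Itgb1, the basement membrane genes Nid1 and Lama5, the procollagen processing enhancer Pcolce2 and the matricellular Ccn2, with log2 fold changes from 0.34 (Itgb1) to 2.45 (Itga2). In 13 of the 50 every HNKO mouse was above every WT mouse, beside 15.8% of genes. Without HNKO 2, edgeR called Ddr1, a collagen receptor kinase, at 2.99 (adjusted p = 0.0359), Nid1 at 1.61 (adjusted p = 0.0359) and Itga2 at 2.94 (adjusted p = 0.0367). As with the collagens, these sums mix levels with cell type numbers.

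The most abundant stellate gene of each role gave levels of the surrounding machinery. P3h2, a prolyl 3-hydroxylase active on type IV collagen, was at 359, 159 and 269.6 CPM in WT and at 344, 339 and 255 CPM in HNKO mice. Adamts2, the main procollagen N-propeptidase, was at 309, 265 and 399 CPM in WT and at 763, 335 and 450.3 CPM in HNKO mice. Timp3, an inhibitor of matrix proteases, was at 606, 176 and 179.8 CPM in WT and at 624, 356 and 169.8 CPM in HNKO mice. HNKO 1 had the highest Adamts2 and Timp3, but the lowest values of the HNKO group reached down into or below the WT range in all 3 genes. The receptor chain Itga1, which pairs with integrin beta 1 to bind collagen, was at 2441, 1147 and 1553 CPM in WT and at 1422, 1487 and 812 CPM in HNKO mice. Dcn, which binds fibrils, was at 885, 1694 and 1009 CPM in WT and at 708, 1164 and 864 CPM in HNKO mice. In all 5 the groups overlapped, and the log2 fold changes lay between -0.49 (Itga1) and 0.63 (Adamts2), with no edgeR p under 0.05.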

How the data were processed

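Single-nucleus RNA-Seq was analyzed for 3 WT and 3 HNKO livers, sequenced as pooled 10x 3′ libraries with hashtag libraries. The authors made FASTQ files with Cell Ranger 5.0.1 and mapped reads with alevin to GRCm38, and the deposited matrix holds estimated counts of UMIs per gene and nucleus, spliced and unspliced together. Of the nonzero values, 10.1% were not whole within 0.001, so sums were rounded to whole numbers. The deposited hashtag counts ranged from 101 to 1244 in a nucleus. Filters of the authors on hashtag counts, gene number (at most 5497 genes remained) and single hashtag calls preceded deposit. Their hashtag calls gave the mouse and their clusters (21, at resolution 1.2) the cell type. The SCTransform-corrected matrix was not used, and no further doublet caller was run.

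Estimated counts of all nuclei of a type in a mouse were added where it had at least 10 such nuclei. CPM are UMIs per 1e6 UMIs of that sum. Genotypes were compared with edgeR 4.0.16 (filterByExpr, TMM factors, quasi-likelihood F-test, Benjamini-Hochberg adjustment over all genes tested, threshold 0.05) in R 4.3.3, and DESeq2 1.42.0 was an alternative. SE were taken as the log2 fold change divided by the square root of F. The code was tested on simulated data. Each nucleus was thinned by calculation to 1000 UMIs for shares of nuclei. A nucleus had a UMI where its estimate rounded to at least 1. Differences between cell types and between genes are descriptions with no test. Intervals and limits for a count of 0 cover counting error only (3 UMIs of the sum). Gene spans were read from the annotation on GRCm38.

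Members with at least 50 UMIs in a cell type over the 6 mice are given per mouse, and of the list of other matrix genes those past the threshold and the most abundant stellate gene of each role. Genes at an unadjusted p under 0.05 in that list were added after their values were seen. The members and lists were chosen with earlier results of these data known. Alternatives were no count filter, other scaling factors, DESeq2, leaving out each mouse, leaving out the 5% of nuclei with most UMIs, stricter hashtag margins, no thinning or thinning to 2000 UMIs, and shares without Col18a1. Separate livers are the replicates, and p-values measure the spread between them.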

Additional observations from a re-analysis of the deposited data

How the results depend on the processing

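The count of stellate collagens past an adjusted p of 0.05 was 0 and became 1 with no count filter (Col3a1, edgeR adjusted p = 0.0124), 0 to 2 when each mouse was left out, and 2 with DESeq2 without HNKO 2, an alternative chosen after seeing the data. Leaving out each mouse gave 0 to 1 in hepatocytes and 0 to 1 in the sums over all nuclei. Over 13 settings the stellate log2 fold change of Col3a1 ran from 1.38 to 2.02 (adjusted p from 0.00252 to 0.998), and that of Col5a3 in hepatocytes from 1.06 to 1.67 (adjusted p from 0.0371 to 0.977). Of the collagens tested, the fold change had the opposite sign under at least 1 setting for 5 of 10 in stellate nuclei, 4 of 5 in endothelial nuclei, 4 of 12 in hepatocytes, 1 of 1 in CD45+ nuclei and 8 of 23 over all nuclei. Of those given with a fold, leaving out each mouse moved Col4a2 from -0.46 to 0.57 in stellate nuclei. Over all 13 settings its stellate fold reached 1.03. In endothelial nuclei leaving out each mouse moved Col4a2 from -0.47 to 0.67. There it was 0.0040 with no count filter and 0.18 without the top 5% of nuclei by UMIs. Col18a1 in CD45+ nuclei ran from -0.51 to 0.37 when each mouse was left out and was 0.010 with DESeq2 and 0.17 with no count filter. The stellate share of collagen UMIs was 13.4%, 36.7% without Col18a1, and 12.4% to 14.6% when each mouse was left out. The mean share of stellate nuclei with a Col3a1 UMI was 24.9% at 1000 UMIs, 37.9% at 2000 UMIs and 50.4% without thinning. Counts over all genes moved with the filter: edgeR without it called 29 genes in stellate nuclei, 16 in endothelial nuclei, 35 in hepatocytes, 23 in CD45+ nuclei and 84 over all nuclei, against 0 in each with it.

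No paired analysis was possible because mouse numbers follow the hashtag names and pair no mice. The planned analysis of each pool on its own was not run, since the barcodes do not show the pool, so a pool effect was not tested. The planned minimum of 60% own hashtag was not run in stellate, endothelial, CD45+ and Kupffer nuclei, where most mice kept too few nuclei, and the margin of 2 times was chosen after seeing this. With 16 to 43 stellate nuclei per mouse, genes of few UMIs could not be compared.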
